A study of Mus musculus with 8 samples.

Results

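The genes examined here encode 10 inflammatory and Th1 (type 1 helper T cell) cytokines outside the interleukin-1 and chemokine families: Ifng, Tnf, Il6, Il10, Il12a, Il12b, Il15, Il27, Il23a and Tgfb1. They were taken by gene name and are 10 of the 54532 genes in the deposited count table. Bulk RNA-seq had been performed on subcutaneous 4T1-FLuc tumors, from a luciferase-carrying mouse triple-negative breast cancer line, grown in immunocompetent female BALB/cJ mice that were 6 weeks old at implantation. The treated group, labelled HumCD276-Dxd/IMQ and called mAb-DXd/IMQ here, comprised 4 tumors from mice injected intravenously with an antibody to CD276 bearing 2 payloads, the topoisomerase I inhibitor DXd and the TLR7 and TLR8 agonist IMQ. Each of the 5 doses was 16 mg/kg, with 4 days between doses. The control group comprised 4 tumors labelled saline in their titles and PBS in their treatment tag. All 8 tumors were taken at the study endpoint and derive from 1 cell line, 4T1, and although the labels call them xenografted, the cells and the hosts are both mouse. The paper reports a far smaller mean tumor volume at the endpoint under treatment than with saline. The part of tumor size in the group differences was not tested. Total counts were between 34591912 and 69582375 per tumor, so that 3 counts corresponded to between 0.0439 and 0.0843 CPM (counts relative to library size, with TMM factors), a floor that covers counting error only.

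Th1 responses are driven by IL-12, made by antigen-presenting cells, which leads T cells and NK cells to secrete interferon gamma. Interferon gamma and TNF in turn activate macrophages and antigen presentation, IL-6 sustains inflammation, and IL-10 and TGF-beta restrain it. Ligands of TLR7 and TLR8 act on dendritic cells and macrophages, which are known sources of IL-12, TNF and IL-6.

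The tumors expressed the epithelial marker Epcam at 374 ± 121 CPM with saline and 508 ± 181 CPM under treatment (mean ± SD, n = 4 each), and the leukocyte marker Ptprc at 155 ± 22.9 and 139 ± 35.5 CPM. Both the labelled epithelial tumor and its leukocytes were thus represented in every library. In bulk tissue, fewer cells of a type and less RNA per cell cannot be told apart.

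A count above 0 in every tumor was found for each of the 10 genes except Il12a, which had 0 counts in 3 tumors. On the scale of CPM per kilobase of gene length, mean levels in saline tumors were highest for Tgfb1 (27.4 ± 4.98, SD, n = 4) and Il23a (12.4 ± 3.12), followed by Il10 (5.82 ± 4.74), Il15 (5.50 ± 2.20) and Tnf (2.33 ± 0.706). Lower levels in CPM per kilobase were found for Ifng (1.78 ± 0.537), Il27 (1.60 ± 0.359), Il12b (0.963 ± 0.630), Il6 (0.486 ± 0.0848) and Il12a (0.0676 ± 0.0611). Neighbors in this order overlapped in range, apart from Tgfb1 with Il23a and Il6 with Il12a. In mAb-DXd/IMQ tumors the order in CPM per kilobase was Tgfb1, Il23a, Il15, Il10, Tnf, Il27, Ifng, Il6, Il12b and Il12a. There, ranges did not overlap between Tgfb1 and Il23a, Il23a and Il15, Il15 and Il10, Tnf and Il27, or Il12b and Il12a.

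**Figure D1:**
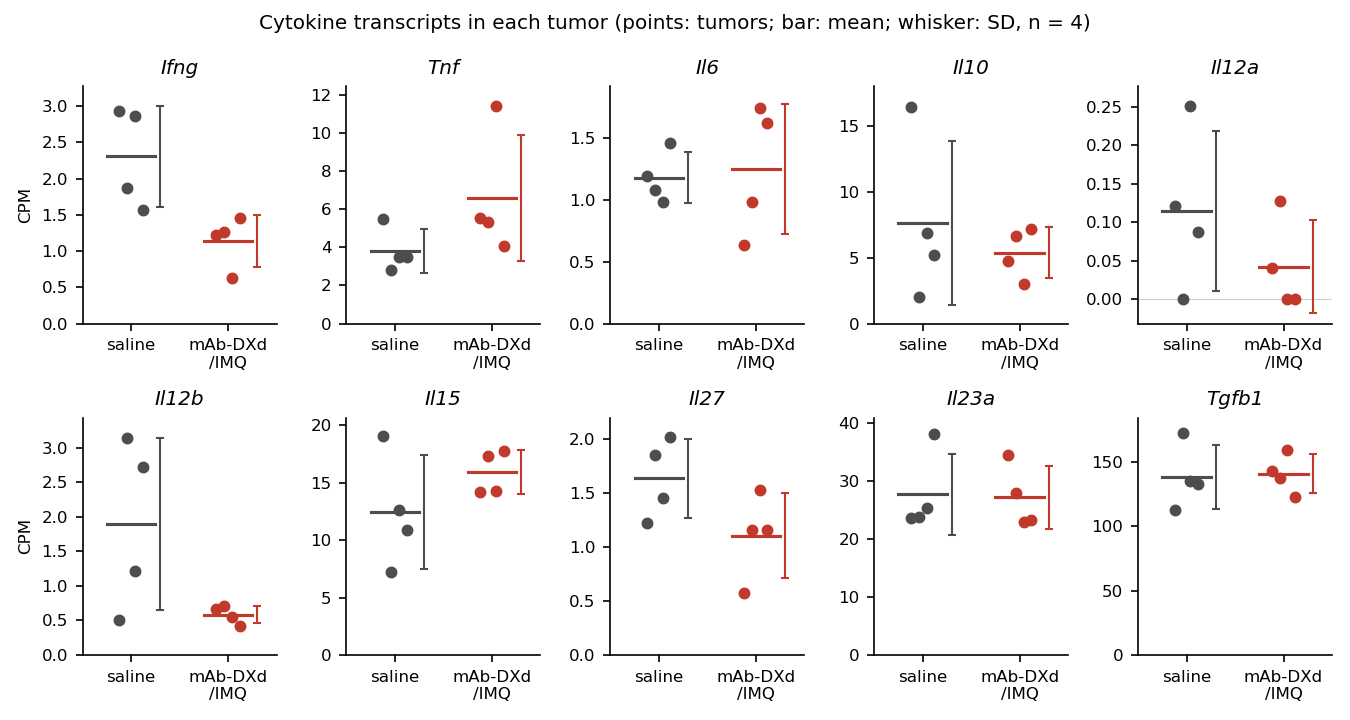
CPM of each of the 10 cytokine genes in the 4 saline and the 4 mAb-DXd/IMQ tumors, with 1 point per tumor, a bar at the group mean and a whisker for the SD, on a linear axis of its own for each gene. The 4 mAb-DXd/IMQ tumors lie below every saline tumor for Ifng, and the groups overlap for the other 9 genes.

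Genes were tested with the edgeR quasi-likelihood test on the counts, with Benjamini-Hochberg adjustment over all tested genes, and called at an adjusted p (FDR) under 0.05 together with an absolute log2 fold change above 0.58. Of the 10 cytokine genes, 9 passed the filter on low counts, and 0 of these 9 were called, against 197 of 18511 tested genes (1.06%). That number rested on single tumors and was 10, 11 and 12 without saline tumor 3, saline tumor 4 and treated tumor 4, with 0 cytokine genes called in each. Of the 197 genes, 101 (0.546% of those tested) were higher and 96 (0.519%) lower in mAb-DXd/IMQ tumors, a split of 145 and 73 with upper quartile scaling. Before adjustment, the edgeR test gave p under 0.05 for 3 of the 9 genes (Ifng, Il12b and Tnf), against 18.9% of all tested genes, and 1 gene (Il12b) was called by DESeq2 and 0 by limma-voom. DESeq2 called 787 of the 18511 tested genes (4.25%) and limma-voom 174 (0.94%). The log2 fold change of mAb-DXd/IMQ over saline was above 0 for 4 of the 9 genes and below 0 for 5, with a median of -0.028 against 0.022 over all tested genes, and with upper quartile scaling Il23a moved to 0.014. Complete separation of the groups was found for 1 of the 10 genes, Ifng, which was lower in mAb-DXd/IMQ tumors. Such separation with lower values occurred for 7.1% of tested genes, and separation with higher values for 5.97%.

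Ifng encodes interferon gamma, the main effector cytokine of Th1 and NK cells. The gene (ENSMUSG00000055170) lies on the plus strand of chromosome 10 from 118441046 to 118445892 in GRCm38. Its level was 2.94, 1.87, 2.86 and 1.56 CPM in saline tumors 1 to 4, and 1.22, 1.26, 0.633 and 1.46 CPM in mAb-DXd/IMQ tumors 1 to 4. All 4 treated tumors lay below the lowest saline tumor, with the third treated tumor the lowest, although treated tumor 4 and saline tumor 4 were close. Mean Ifng levels were 2.31 ± 0.695 CPM with saline and 1.14 ± 0.356 CPM under treatment (mean ± SD, n = 4 each). The log2 fold change was -1.02 (SE 0.34, unadjusted p = 0.0130, adjusted p = 0.145 by the edgeR quasi-likelihood test with Benjamini-Hochberg adjustment), so Ifng was not called. It was called in 0 of 18 alternative fits, across which its log2 fold change was between -1.16 and -0.82. A gene of undetermined function on the same strand overlaps Ifng by 2722 bases and had 70 counts over the saline tumors and 10 over the treated tumors, against 495 and 199 for Ifng. How reads in the overlap were assigned is not given in the sources used here.

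The promoter sequences of Ifng, Il12b and Tnf are shown because these 3 had the smallest unadjusted p of the 9 tested cytokine genes. RefSeq (GRCm38.p6) promoters were matched for 6 of the 10 genes (Ifng, Tnf, Il6, Il12a, Il12b and Tgfb1), and the 250 bases before the start were searched on both strands for 3 sets of letters. These were TGANTCA (bound by AP-1), TTCNNNGAA (bound by STAT factors) and the TATA box TATAAA, where N is any base. They occurred in 6.75%, 7.02% and 12.4% of 32851 promoters of the same length. The sequence before Ifng lies at chr10:118440796-118441045 on the plus strand and is given 5′ to 3′ with matches in capitals, TTCNNNGAA near its 5′ end and TATAAA near its 3′ end, with no overlap between them. A match describes the letters only.
Ifng: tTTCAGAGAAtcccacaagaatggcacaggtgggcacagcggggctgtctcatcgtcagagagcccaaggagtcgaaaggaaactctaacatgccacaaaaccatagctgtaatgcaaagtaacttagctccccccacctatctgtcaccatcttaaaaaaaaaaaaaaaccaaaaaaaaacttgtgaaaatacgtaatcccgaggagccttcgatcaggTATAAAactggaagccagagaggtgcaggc

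IL-12 is a heterodimer of the subunits encoded by Il12a (p35) and Il12b (p40). Il12b (ENSMUSG00000004296) lies on the plus strand of chromosome 11 from 44400063 to 44414033 in GRCm38. The 250 bases before its start, at chr11:44399813-44400062 on the plus strand, held 0 matches to the 3 sets of letters and are therefore without capitals.
Il12b: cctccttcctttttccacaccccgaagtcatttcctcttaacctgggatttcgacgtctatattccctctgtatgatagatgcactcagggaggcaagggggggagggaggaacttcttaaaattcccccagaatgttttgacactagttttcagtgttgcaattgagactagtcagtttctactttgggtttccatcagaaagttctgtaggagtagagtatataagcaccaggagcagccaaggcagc
The level of Il12b was 0.506, 3.14, 1.22 and 2.72 CPM in saline tumors 1 to 4, and 0.660, 0.706, 0.546 and 0.421 CPM in mAb-DXd/IMQ tumors 1 to 4. Saline tumors 2 and 4 were high and saline tumor 3 intermediate, whereas the first saline tumor lay among the treated tumors, so the groups overlapped. Mean Il12b levels were 1.89 ± 1.24 CPM with saline and 0.583 ± 0.127 CPM under treatment (mean ± SD, n = 4 each). Its log2 fold change was -1.69 (SE 0.52, unadjusted p = 0.00749, adjusted p = 0.117 by the edgeR quasi-likelihood test with Benjamini-Hochberg adjustment), and Il12b was not called. Il12b was called in 2 of the 17 alternative fits that tested it, by DESeq2 (log2 fold change -1.70, adjusted p = 0.0236) and by edgeR without the first saline tumor (log2 fold change -2.01, adjusted p = 0.0456), a fit that called 1.08% of tested genes. The adjusted p over these 17 fits was between 0.0236 and 0.297, and the log2 fold change between -2.01 and -1.35.

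Il12a (ENSMUSG00000027776, plus strand of chromosome 3 from 68690644 to 68698547) had 6, 0, 14 and 6 counts in saline tumors 1 to 4, and 2, 6, 0 and 0 counts in mAb-DXd/IMQ tumors 1 to 4. It was above 3 counts in 3 saline tumors and 1 treated tumor, and the groups overlapped. Il12a did not pass the filter, and the difference in log2(CPM + 0.1) of -0.54 gave p = 0.371 in a two-sided exact permutation test. No fold change is given for Il12a, and a difference between the groups was not detectable at this depth.

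Il23a encodes the p19 subunit that joins p40 to form IL-23, a cytokine that maintains IL-17-producing T cells. Il23a (ENSMUSG00000025383, minus strand of chromosome 10 from 128296139 to 128298752) had 23.6, 23.8, 25.4 and 38.2 CPM in saline tumors 1 to 4, and 34.5, 28.1, 22.98 and 23.3 CPM in mAb-DXd/IMQ tumors 1 to 4. Saline tumor 4 stood above the other 3 saline tumors, and the groups overlapped. For Il23a, the log2 fold change was -0.028 (SE 0.19, adjusted p = 0.958 by the edgeR quasi-likelihood test). Its sign was not stable, and without saline tumor 4 the log2 fold change was 0.17.

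As Il23a and Il12a encode alternative partners of p40, the log2 ratio of Il23a to Il12a (CPM + 0.1) was compared between groups. It was 7.12 ± 0.80 with saline and 7.65 ± 0.47 under treatment (mean ± SD, n = 4 each), and the groups overlapped. The difference of 0.53 gave p = 0.229 in a two-sided exact permutation test (p = 0.343 adjusted over the 3 ratios compared; 0.0286 is the smallest p that 70 assignments can give). Because Il12a was at 0 counts in 3 tumors, the difference varied with the pseudocount, from 0.16 with 0.5 CPM to 1.11 with 0.02 CPM. It was 0.21 without saline tumor 3, which had the most Il12a counts, and 0.79 without saline tumor 2.

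Il27 encodes the p28 subunit of IL-27, which primes naive T cells for Th1 differentiation together with its partner Ebi3. Il27 (ENSMUSG00000044701, minus strand of chromosome 7 from 126589010 to 126594941) had between 1.22 and 2.02 CPM in saline tumors and between 0.577 and 1.53 CPM in mAb-DXd/IMQ tumors. For Il27, 3 of the 4 treated tumors lay below every saline tumor and the third lay within the saline range. Il27 had a log2 fold change of -0.57 (SE 0.35, adjusted p = 0.411 by the edgeR quasi-likelihood test), and Il27 was called in 0 of 18 alternative fits. Without the first treated tumor its log2 fold change was -0.35. Il27 shares 103 bases with Apobr on the opposite strand, which had 32831 counts over the 8 tumors against 554 for Il27, and without a known strand setting reads there cannot be told apart.

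Il15 encodes a cytokine that maintains NK cells and memory CD8 T cells. Il15 (ENSMUSG00000031712, minus strand of chromosome 8 from 82331632 to 82403222) had between 7.22 and 19.1 CPM in saline tumors and between 14.2 and 17.7 CPM in mAb-DXd/IMQ tumors. The 4 treated tumors lay close together inside the wider range of the saline tumors, in which the first was high and the second low. Il15 had a log2 fold change of 0.35 (SE 0.25, adjusted p = 0.488 by the edgeR quasi-likelihood test). Without the first saline tumor the log2 fold change of Il15 was 0.63, and without the second it was 0.16. It was above 0 in 18 of 18 alternative fits, and Il15 was called in 0 of them.

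Tnf encodes tumor necrosis factor, a mediator of acute inflammation made largely by macrophages and T cells. The gene (ENSMUSG00000024401) lies on the minus strand of chromosome 17 from 35199381 to 35202007 in GRCm38. The 250 bases before its start, at chr17:35202008-35202257 on the minus strand, held 1 match, TATAAA, shown in capitals.
Tnf: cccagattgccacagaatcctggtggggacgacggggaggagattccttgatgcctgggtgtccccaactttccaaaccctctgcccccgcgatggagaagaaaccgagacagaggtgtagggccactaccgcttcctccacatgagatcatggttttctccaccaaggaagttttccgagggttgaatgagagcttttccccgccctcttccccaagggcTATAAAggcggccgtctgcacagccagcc
The level of Tnf was 5.49, 2.82, 3.47 and 3.49 CPM in saline tumors 1 to 4, and 5.55, 5.33, 11.5 and 4.07 CPM in mAb-DXd/IMQ tumors 1 to 4. The third treated tumor was the highest of all, and the groups overlapped through the first saline tumor, which lay at the level of the first and second treated tumors. Mean Tnf levels were 3.82 ± 1.16 CPM with saline and 6.60 ± 3.30 CPM under treatment (mean ± SD, n = 4 each). Its log2 fold change was 0.79 (SE 0.34, unadjusted p = 0.0383, adjusted p = 0.234 by the edgeR quasi-likelihood test with Benjamini-Hochberg adjustment), and Tnf was not called. Without the third treated tumor the log2 fold change of Tnf was 0.38, and Tnf was called in 0 of 18 alternative fits.

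Il6 encodes interleukin-6, which signals through STAT3 and promotes acute-phase responses. Il6 (ENSMUSG00000025746, plus strand of chromosome 5 from 30013114 to 30019981) had between 0.985 and 1.46 CPM in saline tumors and between 0.639 and 1.75 CPM in mAb-DXd/IMQ tumors. Of the 4 treated tumors, 2 lay below and 2 above every saline tumor for Il6. Il6 differed by a log2 fold change of 0.076 (SE 0.37, adjusted p = 0.939 by the edgeR quasi-likelihood test), and its sign differed between fits.

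Il10 encodes interleukin-10, which limits antigen presentation and Th1 responses. Il10 (ENSMUSG00000016529, plus strand of chromosome 1 from 131019845 to 131024974) had 16.4, 1.98, 6.89 and 5.19 CPM in saline tumors 1 to 4, and 4.72, 6.67, 2.97 and 7.16 CPM in mAb-DXd/IMQ tumors 1 to 4. The highest and the lowest of the 8 tumors were both saline tumors, the first and the second, and all treated tumors lay between them. The coefficient of variation of Il10 was 81.4% among saline tumors and 35.7% among mAb-DXd/IMQ tumors. Il10 had a log2 fold change of -0.50 (SE 0.52, adjusted p = 0.643 by the edgeR quasi-likelihood test), and it was 0.19 without the first saline tumor. The macrophage and monocyte markers ran the other way in these 2 saline tumors, with a summed level of 1002 CPM over 7 genes in the first and 5652 CPM in the second. Their part in the spread of Il10 was not tested.

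Tgfb1 encodes TGF-beta 1, a suppressor of T-cell activation that is secreted in a latent form. Tgfb1 (ENSMUSG00000002603, plus strand of chromosome 7 from 25687002 to 25705077) had between 112 and 173 CPM in saline tumors and between 123 and 159 CPM in mAb-DXd/IMQ tumors. All treated tumors lay within the saline range for Tgfb1. The log2 fold change of Tgfb1 was 0.025 (SE 0.14, adjusted p = 0.948 by the edgeR quasi-likelihood test), with a coefficient of variation of 18.2% among saline tumors and 10.7% among mAb-DXd/IMQ tumors.

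**Figure D2:**
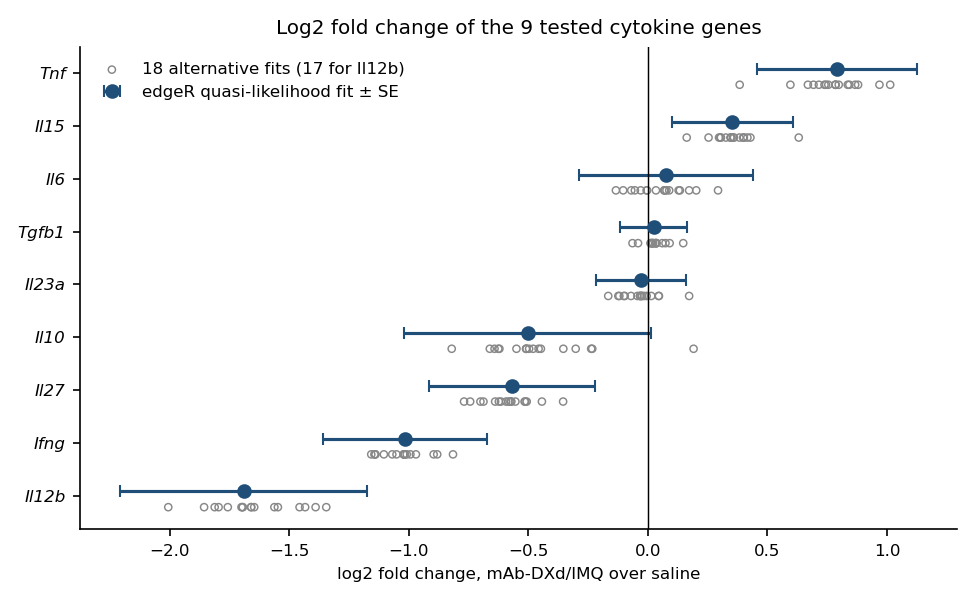
Log2 fold change of mAb-DXd/IMQ over saline for the 9 tested cytokine genes, with the edgeR quasi-likelihood estimate as a filled point, its SE as a bar and the alternative fits as open points below it. The estimates run from -1.69 for Il12b to 0.79 for Tnf, and the alternatives for Il6, Il10, Il23a and Tgfb1 fall on both sides of 0.

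The balance of Ifng against Il10 was compared as a log2 ratio of CPM + 0.1. The Ifng to Il10 log2 ratio was -2.44, -0.08, -1.24 and -1.67 in saline tumors 1 to 4, and -1.87, -2.31, -2.07 and -2.22 in mAb-DXd/IMQ tumors 1 to 4. The first saline tumor, with the most Il10, had the lowest ratio of all, and the other 3 saline tumors lay above every treated tumor. The difference in the Ifng to Il10 log2 ratio of -0.76 gave p = 0.20 in a two-sided exact permutation test (p = 0.343 adjusted over the 3 ratios). The difference was -1.12 without the first saline tumor, where p was at its smallest possible value because no other tumor made the groups overlap. It was -0.33 without the second saline tumor (p = 0.371, exact permutation test), and p was between 0.229 and 0.343 with any 1 of the other 6 tumors left out (exact permutation tests).

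T cells are a main source of Ifng, and 6 of 6 T-cell markers had log2 fold changes below 0. Among them Cd4 (log2 fold change -1.91, SE 0.25) and Cd8a (-1.22, SE 0.17) were called (adjusted p = 0.0201 for both, edgeR), and both lost the call without saline tumor 3 (-1.92 and -1.17), saline tumor 4 (-1.77 and -1.22) or treated tumor 4 (-1.90 and -1.20). Both also lost the call with a replicate block (-1.87 and -1.24). The summed level of the 6 markers was 62.4, 91.3, 89.7 and 79.2 CPM in saline tumors 1 to 4, and 47.9, 40.8, 24.96 and 35.8 CPM in mAb-DXd/IMQ tumors 1 to 4, with Cd8a the most abundant per kilobase and no marker at 0. The third treated tumor was the lowest both for this sum and for Ifng, and the groups did not overlap for either. The Ifng to CD3 log2 ratio, of Ifng over the summed Cd3d, Cd3e and Cd3g (CPM + 0.1), was -2.72, -4.11, -3.47 and -3.82 in saline tumors 1 to 4, and -3.94, -3.67, -3.61 and -3.41 in mAb-DXd/IMQ tumors 1 to 4. The treated tumors lay inside the saline range, which was set by the first and second saline tumors. The mean Ifng to CD3 log2 ratio was -3.53 ± 0.60 with saline and -3.66 ± 0.22 under treatment (mean ± SD, n = 4 each). The difference of -0.13 gave p = 0.771 in a two-sided exact permutation test (p = 0.771 adjusted over the 3 ratios), and it was 0.049 with a pseudocount of 0.5 CPM and 0.15 without the first saline tumor. Cd3d, Cd3e and Cd3g had log2 fold changes of -0.88, -0.98 and -0.69 beside that of -1.02 for Ifng, and 0 of these 3 were called by edgeR or limma-voom and 2, Cd3d and Cd3e, by DESeq2. DESeq2 called 5 of the 6 T-cell markers, all but Cd3g, and limma-voom called 3 (Cd4, Cd8a and Cd8b1). The part of T cells in the level of Ifng was not tested.

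**Figure D3:**
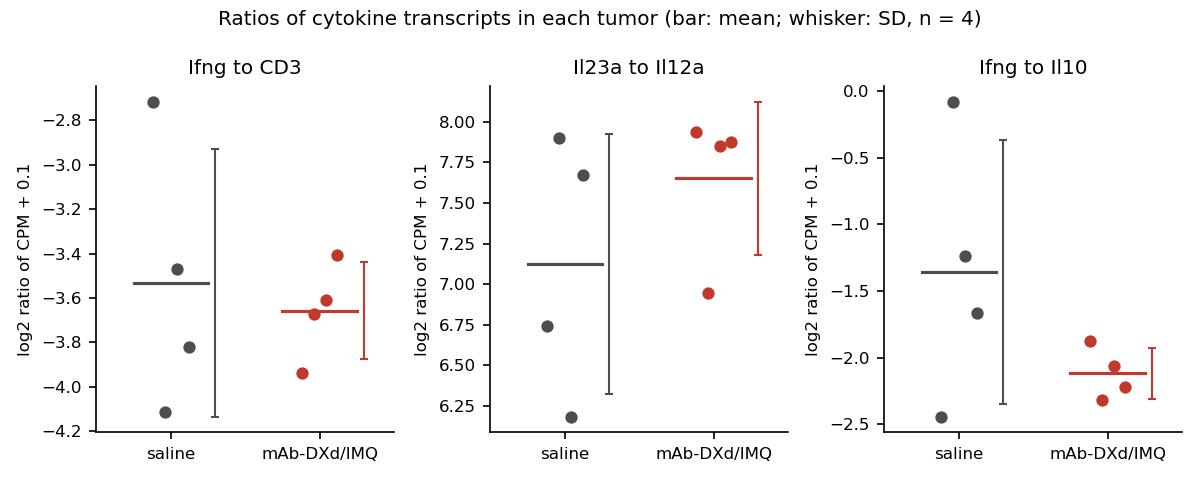
Log2 ratios of Ifng to the summed CD3 genes, Il23a to Il12a and Ifng to Il10 in each tumor, from CPM with 0.1 added, with 1 point per tumor, a bar at the group mean and a whisker for the SD. The groups overlap in all 3 ratios, and in the Ifng to Il10 ratio the overlap comes from the first saline tumor at -2.44.

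NK cells also make Ifng, and of the 4 NK-cell markers 3 had log2 fold changes above 0 and 1 below, with a median of 0.17. Not all of the 3 stayed above 0 in every leave-one-out fit. Of the 4 markers, 0 were called by edgeR or limma-voom and 1 by DESeq2 (Klrc1). An unadjusted p under 0.05 in edgeR was found for 1 of them, against 18.9% of all tested genes. Ncr1 had a log2 fold change of 0.64 (SE 0.30, adjusted p = 0.287, edgeR), which was 1.02 without saline tumor 4, at 7.10 CPM against 2.75 to 3.55 CPM in the other saline tumors. Klrc1, the most abundant per kilobase, was at -0.97 (SE 0.21, adjusted p = 0.0518, edgeR), and it was also called without a filter and with a filter at 1 CPM. The summed NK-cell markers were between 15.8 and 19.2 CPM in saline tumors and between 12.96 and 19.2 CPM in mAb-DXd/IMQ tumors, with no marker at 0. Of the 7 dendritic-cell markers, which mark a source of Il12b, 6 had a log2 fold change below 0 and 0 were called by edgeR, DESeq2 or limma-voom (3 at an unadjusted p under 0.05 in edgeR), with Flt3 at -1.03 (SE 0.41, adjusted p = 0.211, edgeR). The summed dendritic-cell markers, dominated by Itgax, were 86.5, 112, 104 and 113 CPM in saline tumors 1 to 4, and 85.3, 86.3, 152 and 89.1 CPM in mAb-DXd/IMQ tumors 1 to 4. In the third treated tumor, which had the highest sum and 0.546 CPM of Il12b, Itgax made up 128 CPM of it. Itgax was the only marker of the 7 with a log2 fold change above 0 (0.20), and it was at -0.12 without that tumor.

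Clec9a and Xcr1, markers of cross-presenting dendritic cells, are given after their values were seen. Clec9a was at 0.405, 5.68, 2.69 and 2.76 CPM in saline tumors 1 to 4, and at 0.680, 1.09, 1.16 and 1.07 CPM in mAb-DXd/IMQ tumors 1 to 4. Xcr1 was at 1.03, 7.01, 1.99 and 3.35 CPM in saline tumors 1 to 4, and at 1.77, 1.33, 1.42 and 1.40 CPM in mAb-DXd/IMQ tumors 1 to 4. The second saline tumor was the highest for both, as for Il12b, and the first lay below every treated tumor, whereas for Il12b it lay among them. The log2 fold change was -1.53 for Clec9a (SE 0.58, adjusted p = 0.194, edgeR) and -1.17 for Xcr1 (SE 0.49, adjusted p = 0.226, edgeR). Clec9a was called without the first saline tumor (-1.89, adjusted p = 0.0414, edgeR) and in 0 of the other 17 alternative fits, and its adjusted p over the 18 was between 0.0414 and 0.469. Without the second saline tumor the log2 fold change was -0.97 for Clec9a and -0.53 for Xcr1, and Xcr1 was called in 0 of 18 alternative fits.

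Macrophage and monocyte markers, of which Lyz2 was the most abundant per kilobase, included 0 of 7 genes called by edgeR or limma-voom and 1 by DESeq2 (Mrc1, also the only 1 at an unadjusted p under 0.05 in edgeR), and no marker was at 0 in these or the dendritic-cell list. All 7 had log2 fold changes below 0 with a median of -0.24, though Lyz2 (0.0080) and Cd68 (0.012) were above 0 with upper quartile scaling, and Lyz2, Cd68, C1qa and C1qb were above 0 without the second saline tumor. Lyz2, Cd68 and C1qa were also above 0 in other alternatives. The summed level of the 7 markers was 1002, 5652, 2435 and 3019 CPM in saline tumors 1 to 4, and 3185, 2271, 2944 and 2189 CPM in mAb-DXd/IMQ tumors 1 to 4, all inside the saline range. Adgre1 had a log2 fold change of -0.65 (SE 0.38, adjusted p = 0.387, edgeR), which was -0.32 without the second saline tumor. Mrc1, a mannose receptor of macrophages that is also given after its values were seen, had the smallest p of the list (log2 fold change -1.37, SE 0.31, adjusted p = 0.0574, edgeR). It was at 104, 360.2, 135 and 189 CPM in saline tumors 1 to 4 and between 71.9 and 82.7 CPM in mAb-DXd/IMQ tumors, so the groups did not overlap. Mrc1 was called in 3 of 18 alternative fits, by DESeq2, without a filter and without the first saline tumor, with adjusted p between 0.00051 and 0.155 over the 18 and log2 fold changes between -1.58 and -0.90, the latter without the second saline tumor. The part of NK cells, dendritic cells and macrophages in the levels of Ifng, Il12b and Tnf was not tested.

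The 3 tested genes whose log2 CPM followed Ifng most closely over the 8 tumors were Mtmr11, Mtmr3 and Socs5, with Pearson's r of 0.950, 0.949 and 0.948. These are descriptions over 8 tumors that share the group difference, and 44 of 18510 other genes had r above 0.9 with Ifng.

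The receptors of the 10 cytokines comprised 18 genes, of which 17 were tested, with a median log2 fold change of -0.065 against 0.022 over all tested genes. Among these 17, 0 were called by edgeR or limma-voom and 3 by DESeq2 (Il6ra, Il27ra and Tgfbr3). An unadjusted p under 0.05 in edgeR was found for 5 of the 17, against 18.9% of all tested genes. The receptors with the smallest p were Il6ra, which binds the product of Il6 (log2 fold change -0.63, SE 0.15, adjusted p = 0.0625, edgeR), and Tgfbr3, a coreceptor for TGF-beta (-1.12, SE 0.27, adjusted p = 0.0668, edgeR). Both were also called without a filter. Tnfrsf1a, a receptor for the product of Tnf, was the most abundant receptor per kilobase, at 141 ± 7.15 and 125 ± 9.36 CPM (SD, n = 4). Il23r, the receptor subunit for IL-23, had 19 counts over the saline tumors and 2 over the treated tumors and was not tested. Of 15 partner subunits and release or activation factors of these cytokines, 0 were called by edgeR or limma-voom and 2 by DESeq2 (Itgb6 and Ltbp1), with 4 at an unadjusted p under 0.05 in edgeR and a median of -0.087. Among them, Itgb6, part of an integrin that activates latent TGF-beta, had a log2 fold change of 1.77 (SE 0.47, adjusted p = 0.0825, edgeR), and Ltbp1, which binds latent TGF-beta, had -0.61 (SE 0.17, adjusted p = 0.0868, edgeR). Ltbp3, the most abundant per kilobase, was at 1643 ± 251 and 1196 ± 372 CPM (SD, n = 4), while Tgfb1 itself stayed within the saline range.

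Of 10 genes of Th1 differentiation, upstream or downstream of Il12b and Ifng, 0 were called by edgeR or limma-voom and 1 by DESeq2 (Eomes). An unadjusted p under 0.05 in edgeR was found for 3 of the 10, against 18.9% of all tested genes. For 7 of the 10 the log2 fold change was below 0 (8 with the gene length correction, where Hlx moved to -0.0049, and 6 without saline tumor 1, where Il18rap moved to 0.13), and the median was -0.35. Eomes, a transcription factor that drives Ifng, was at 0.89 (SE 0.25, adjusted p = 0.0885, edgeR), and Il12rb2, the signaling subunit of the IL-12 receptor, at -1.46 (SE 0.54, adjusted p = 0.179, edgeR). Without treated tumor 2, at 1.048 CPM of Il12rb2 against 0.196 to 0.309 CPM in the other treated tumors, it was at -2.31. Of 16 targets of interferon gamma, 1 was called, Ciita, the master regulator of MHC class II genes, which fell by 0.94 on the log2 scale (SE 0.13, adjusted p = 0.0201, edgeR). Ciita lost the call without saline tumor 3 (log2 fold change -0.91) or treated tumor 4 (-0.95), and with a replicate block (-0.93). Of the 16 targets, 2 had an unadjusted p under 0.05 in edgeR. The median over these targets was -0.17, and B2m, the most abundant per kilobase, had a log2 fold change of 0.11 (SE 0.16, adjusted p = 0.753, edgeR), which was -0.011 with the gene length correction.

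Of 13 targets of TNF and NF-kB, 0 were called by edgeR or limma-voom and 1 by DESeq2 (Ccl2). An unadjusted p under 0.05 in edgeR was found for 7 of the 13, against 18.9% of all tested genes. Their median log2 fold change was -0.22, beside 0.79 for Tnf, which was not called. The smallest p among them belonged to Ccl2 (log2 fold change 0.77, SE 0.20, adjusted p = 0.0748, edgeR) and Vcam1 (-0.52, SE 0.16, adjusted p = 0.110, edgeR), and Nfkb2 was the most abundant per kilobase. Ccl2, above 0 as Tnf was, was also called without a filter. Of 11 targets of IL-6 and STAT3, 11 had log2 fold changes below 0 with a median of -0.49 (Bcl3 moved to 0.013 with upper quartile scaling and to 0.055 without saline tumor 1, and Cebpd to 0.074 without saline tumor 2), and 2 were called, the acute-phase gene Saa3 (fell by 1.07 on the log2 scale, SE 0.15, adjusted p = 0.0201, edgeR) and the kinase gene Pim1 (fell by 0.62, SE 0.13, adjusted p = 0.0469, edgeR). DESeq2 also called Cebpb, and 8 of the 11 had an unadjusted p under 0.05 in edgeR. Saa3 lost the call without saline tumor 3 (-0.96), saline tumor 4 (-1.08) or treated tumor 4 (-1.02). Pim1 lost it in 8 of the 8 leave-one-out fits (between -0.69 and -0.51). Its other losses included upper quartile scaling (-0.58), and Pim1 was called in only 7 of all 18 alternative fits. Junb was the most abundant of these targets per kilobase, and Il6 itself differed by 0.076. Of 11 targets of TGF-beta, 0 were called by edgeR, DESeq2 or limma-voom (1 at an unadjusted p under 0.05 in edgeR) and the median was -0.059, with Ski at -0.32 (SE 0.14, adjusted p = 0.240, edgeR), Ctgf at 0.91 (SE 0.42, adjusted p = 0.271, edgeR) and Fn1 the most abundant per kilobase. Ctgf was at 0.27 without treated tumor 3, which had 262 CPM against 48.2 to 118 CPM in the other treated tumors. Of 12 genes of TLR7 and TLR8 signaling, which can induce Tnf, Il6 and Il12b, 0 were called by edgeR or limma-voom and 1 by DESeq2 (Irf7), with 6 at an unadjusted p under 0.05 in edgeR. Log2 fold changes were below 0 for 11 of the 12, with a median of -0.25, though Myd88 was above 0 with upper quartile scaling (0.0081) and without treated tumor 4 (0.070), and Tlr7, a receptor for the IMQ payload, was at -0.20 and moved to 0.20 without saline tumor 2. Irf7, the most abundant of them per kilobase, was at 1.15 (SE 0.27, adjusted p = 0.0591, edgeR) and Irak1 at -0.38 (SE 0.095, adjusted p = 0.0692, edgeR). For Irf7 the groups did not overlap, and it was called in 4 of 18 alternative fits, by DESeq2, without a filter and without the first or the second saline tumor. Tlr8 encodes the other receptor that the paper names for the IMQ payload, and a response of mouse TLR8 to it was not tested here. The log2 fold change of Tlr8 was -0.92 (SE 0.34, adjusted p = 0.183, edgeR). Over the 18 alternative fits its log2 fold change was between -1.19 and -0.56, and it was called in 1 of them.

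Of 25 other interleukins and cytokines, 16 were tested and 1 was called, Tslp, an epithelial cytokine of type 2 responses, which rose by 1.94 on the log2 scale (SE 0.39, adjusted p = 0.0429, edgeR) from 16.2 ± 8.06 to 62.2 ± 25.4 CPM (SD, n = 4). The groups overlapped for Tslp, as treated tumor 3 (25.5 CPM) lay below saline tumor 3 (27.4 CPM). Tslp lost the call in 7 of the 8 leave-one-out fits, all but the one without treated tumor 3, with log2 fold changes between 1.74 and 2.32 over the 8 fits. Its other losses included limma-voom (1.90) and the gene length correction (1.81), and it was called in only 7 of all 18 alternative fits. Of the 16, 4 had an unadjusted p under 0.05 in edgeR, against 18.9% of all tested genes. The median over the 16 was -0.017, and Csf1 was the most abundant per kilobase.

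**Figure D4:**
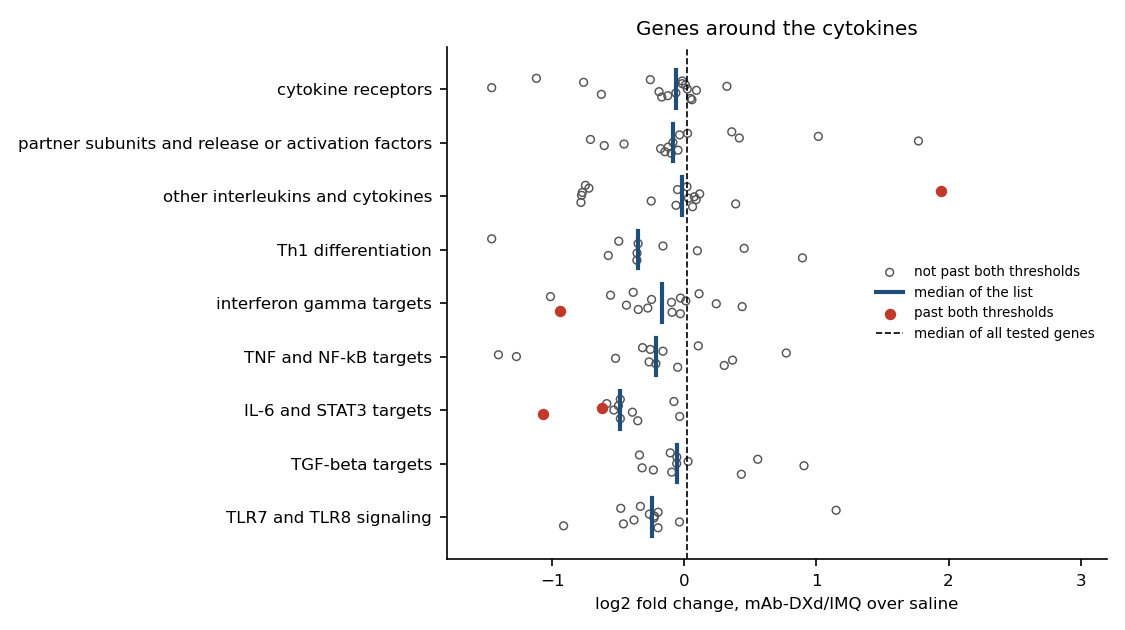
Log2 fold change of mAb-DXd/IMQ over saline for the tested genes of 9 lists of receptors, partners, other cytokines and targets of the 10 cytokines, with 1 point per gene, filled where the gene passed both thresholds, a bar at the median of the list and a dashed line at the median of all tested genes (0.022). Tslp lies above 0 and Ciita, Saa3 and Pim1 lie below it.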

How the data were processed

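Total RNA from 8 tumors was sequenced after poly(A) selection, and the authors deposited unnormalized counts for each gene in each tumor, with gene lengths. The submitters' processing notes name HISAT2, HISAT, TopHat2 and mm39 without a role, whereas gene starts and ends matched GENCODE M21 (GRCm38) for 53499 of 54409 shared genes. The counting program and strand setting are not given in the sources used here. Tumors were grouped by their labels, and no library was a duplicate. Counts were analysed in R 4.3.3 with edgeR 4.0.16 (filterByExpr with its default minimums of 10 counts and 15 in total, TMM, quasi-likelihood F-test, Benjamini-Hochberg adjustment), and SEs were derived from the F statistic. Alternatives used DESeq2 1.42.0, limma-voom (limma 3.58.1), other scalings and filters, gene length offsets, a replicate block and each tumor left out. CPM were total counts scaled with TMM factors. Ratios were compared in Python 3.11.15 by exact permutation tests, and figures were drawn with matplotlib 3.10.9. The steps were tested on simulated data.

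Named genes were the 10 cytokines, every called gene of each list or else the 2 with the smallest p, the most abundant gene of each list, 9 cell-type markers, and the 3 genes most correlated with Ifng. Clec9a, Xcr1, Mrc1, Cd68, C1qa, C1qb, Cd8b1, Il23r, Il27ra, Cebpb, Cebpd, Bcl3, Myd88, Tlr7, Tlr8, Hlx and Il18rap were added after their values were seen, as were marker genes at 0 counts. Cd3d and Cd3g are named as parts of the Ifng to CD3 ratio, Ebi3 as the partner of Il27, and Apobr as a gene that overlaps it. A gene that this rule names is not reported here. Ccn2 was matched by its older symbol Ctgf. The members and lists were chosen with earlier results of these data known.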

Additional observations from a re-analysis of the deposited data

Results flagged for a closer look

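In 62 groups of 4 tumors, the gap between the most distant tumor and its nearest neighbor was compared with the whole range of the group, and 5 groups had a gap larger than Dixon's test allows, where chance flags about 1 in 20 groups, or 3.1 here. For Il23a in saline tumors the gap was 0.876 of the range, with tumor 4 at 38.2 CPM and the others between 23.6 and 25.4 CPM. For the Il23a to Il12a log2 ratio in mAb-DXd/IMQ tumors it was 0.912, with the second tumor at 6.95 and the others between 7.85 and 7.94, but Il12a had 6 counts in the second tumor and 2, 0 and 0 in the others, so that the added 0.1 CPM largely set how close these 3 lay. In the third mAb-DXd/IMQ tumor, Ptprc, which alone forms the list for all leukocytes, was at 193 CPM against 119 to 125 CPM in the others (gap 0.909 of the range), and the summed dendritic-cell markers were at 152 CPM against 85.3 to 89.1 CPM (0.942), with Itgax at 128 CPM of the 152. The summed epidermis markers were at 161 CPM in the second mAb-DXd/IMQ tumor against 6.62 to 9.55 CPM in the others (0.981).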

How the results depend on the processing

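The number of genes called was 197, and it was 358 without a filter, 787 with DESeq2 and 122 with the gene length correction, and between 10 and 203 with each tumor left out. It was 111, 10 and 11 without saline tumors 2, 3 and 4, and 76, 88 and 12 without mAb-DXd/IMQ tumors 2, 3 and 4. The cause was not tested. Tumors with the same number, each from its own mouse, did not deviate together (correlations of -0.17, -0.05, 0.08 and -0.07), so the numbers do not pair them. With a replicate block the count was 14, also with the gene length correction. Cd4, Cd8a, Ciita, Csf3r and Cpa3 were called in neither of these fits. The log2 fold change of Il6 was -0.0034 with the replicate block, -0.10 with the block and the length correction, -0.030 with the length correction and -0.054 with limma-voom. It was 0.014 for Il23a with upper quartile scaling. With each tumor left out, log2 fold changes were between -0.13 and 0.29 for Il6, -0.82 and 0.19 for Il10, -0.17 and 0.17 for Il23a, and -0.064 and 0.15 for Tgfb1. The other 5 tested genes kept their sign in every alternative, and 16 of 18 alternatives called 0 of the cytokine genes. The Ifng to CD3 difference was 0.049 with a pseudocount of 0.5 CPM. Leaving out each tumor gave -0.32 to 0.15 for it, 0.21 to 0.79 for Il23a to Il12a and -1.12 to -0.33 for Ifng to Il10. In exact sign-flip tests of same-number differences, 0.125 is the smallest p that 4 pairs can give.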

Other observations

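Markers of other cell types were summed in each tumor. Neutrophil markers, with S100a9 the most abundant per kilobase, were between 80.7 and 218 CPM in saline tumors and between 31.5 and 62.3 CPM in mAb-DXd/IMQ tumors, and 1 of the 4 tested was called, Csf3r (log2 fold change -0.80, adjusted p = 0.0402, edgeR), though in only 1 of the 8 leave-one-out fits and not with library size scaling (-0.76) or upper quartile scaling (-0.75), while S100a8 had -1.74 (adjusted p = 0.0521, edgeR) and was called in 4 of 18 alternative fits. DESeq2 called 3 of the 4 (Csf3r, S100a8 and S100a9) and limma-voom 1 (Csf3r). Mast-cell markers, with Tpsb2 the most abundant, were between 26.9 and 136 CPM and between 15.5 and 36.6 CPM, and 1 of 4 was called, Cpa3 (log2 fold change -2.84, adjusted p = 0.0433, edgeR), and in 1 of the 8 leave-one-out fits, while DESeq2 called 2 (Cpa3 and Tpsb2) and limma-voom 0. B- and plasma-cell markers, with Jchain the most abundant, were between 1.86 and 33.8 CPM and between 0.590 and 1.66 CPM, and 0 of 3 tested genes were called by edgeR or limma-voom and 1 by DESeq2 (Jchain), with 2 at an unadjusted p under 0.05 in edgeR. Of the markers of fibroblasts (led by Lum), endothelium (Cdh5), epidermis (Krt5), skeletal muscle (Acta1), adipocytes (Cfd) and tumor epithelium (Krt18), 0 were called by edgeR, DESeq2 or limma-voom, and 1, of fibroblasts, had an unadjusted p under 0.05 in edgeR. Among the defining markers, Ly6g, Ms4a1, Mzb1, Krt1, Krt5, Ivl, Adipoq and Plin1 were at 0 counts in some tumors.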
